A study of Mus musculus with 6 samples.

Results

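The miRNAs described here are 2 pairs of paralogs, mmu-miR-221 with mmu-miR-222 and mmu-miR-26a with mmu-miR-26b. They are 4 of the 750 miRNA assays on the cards, taken by their mouse assay names, and assays marked # for the opposite strand were left out. Freshly isolated monocytes of 3 DBA/1 mice gave 1 Ly6C high and 1 Ly6C low sample per mouse, so that 6 samples were compared, 3 per subset. Age, sex and the gates that separated the subsets are not given in the sources used here. RNA, 10 ng per sample, was read on a TaqMan low-density array, whose wells each hold 1 PCR assay and return a threshold cycle (Ct), the cycle at which fluorescence passes a set level. A Ct later by 1 cycle stands for 1 log2 unit less template, and 40 is listed where no signal was seen.

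Ly6C high monocytes are the classical, inflammatory subset of mouse blood, and most Ly6C low monocytes, which patrol the vessel wall, derive from them. A miRNA lowers the output of its target mRNAs, which it binds mainly through its seed. miR-221 and miR-222 are known for lowering the cell cycle inhibitor Cdkn1b, and so for favouring proliferation. They also lower the stem cell factor receptor Kit, which itself promotes growth. miR-26a and miR-26b are known for lowering Ezh2 and several cyclins, and so for restraining it. The comparison asks whether these pairs with opposed roles differed in level between the subsets of the same mouse.

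The mature sequences are shown because the members of each pair share their seed and differ outside it. They come from RefSeq (GRCm38.p6), where 4 of the 4 members were matched by name to the arm that the unmarked name usually denotes, since the sources used here give no assay sequences. Seed bases 2 to 8 are in capitals, read 5′ to 3′.
mmu-miR-221-3p: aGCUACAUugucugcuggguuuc
mmu-miR-222-3p: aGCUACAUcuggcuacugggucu
mmu-miR-26a-5p: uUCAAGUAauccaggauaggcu
mmu-miR-26b-5p: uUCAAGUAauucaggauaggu
Positions are counted from 1 at the 5′ end. From miR-221 to miR-222, 12 of 23 positions differ, all of them 3′ of the seed (U9C, G10U, U11G, C12G, U13C, G14U, C15A, U16C, G17U, U20G, U22C and C23U). From miR-26a to miR-26b, only 2 of the 21 positions they share differ (C11U and C21U), and miR-26a is 22 bases long. How far either miR-26 assay also amplifies the other paralog was not tested. Among the RefSeq mature miRNAs used here, the seed of miR-221 and miR-222 is also that of mmu-miR-1928, and the seed of the miR-26 pair is theirs alone. The assay for mmu-miR-1928 and the opposite-strand assay hsa-miR-26b#, the only one on the cards from the hairpins of the 4 members, had no signal in any of the 6 samples.

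The pairs differ in how their genes lie. Mir221 (chrX:19146294-19146388, minus strand) and Mir222 (chrX:19146893-19146971, minus strand) are neighbours with 504 bases between them and lie within no other annotated gene. The miR-26 pair comes from 3 separate hairpins. miR-26a is encoded by both Mir26a-1 (chr9:119031796-119031885, plus strand), within the span of Ctdspl, and Mir26a-2 (chr10:126995530-126995613, plus strand), within that of Ctdsp2. Mir26b (chr1:74394310-74394394, plus strand) lies within that of Ctdsp1. These host genes encode small phosphatases of a single family. The array reads mature miR-26a from both of its genes together.

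One sample stood apart on card A, which holds all 4 assays, and its values are therefore given separately. Over the 127 tested assays of this card, the mouse 1 Ly6C high sample reached a Spearman correlation of at most 0.148 with any other sample, against at least 0.733 between the other 5 (assays are not independent replicates). Of 86 card A assays with a Ct under 35 in all other samples, 46 (53.5%) had no signal in it. The same measure gave 3 of 44 for the mouse 2 Ly6C high sample and 0 for each of the other samples. U6, the small nuclear RNA used for normalization, had a Ct of 22.66 there, inside the range of 19.80 to 24.66 over all samples.

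Marker miRNAs of myeloid cells and leukocytes were also missing from that sample. All 3 myeloid and leukocyte markers had no signal in it, miR-223 included, the defining miRNA of the granulocyte and monocyte lineage, whereas all 3 had a Ct under 35 in each other sample. Their summed level relative to U6, with miR-223 the most abundant, was 8.14 and 15.0 in Ly6C high monocytes of mice 2 and 3 and 2.68, 5.22 and 8.83 in the Ly6C low samples of mice 1, 2 and 3. The monocyte label of the mouse 1 Ly6C high sample therefore had no marker signal behind it on this card. Of 5 epithelial markers, 2 had a Ct under 35 in it, against 1 to 4 in each other sample. Their summed level was 1.62, most of it from the 1 reaction for miR-200b, against 0.0061 to 0.0267 in the other 5 samples. In those samples miR-200c was the most abundant. The Ct of miR-200c in the mouse 1 Ly6C high sample, 29.97, was inside the range of 26.98 to 30.03 in the others. miR-200a and miR-141 had no signal in it. miR-429 had no signal in any sample.

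Some of the listed lymphocyte and other markers had a signal in both subsets. The 3 lymphocyte markers with an assay, miR-150, miR-342-3p and miR-181a, summed to 0.206, 1.89 and 0.218 relative to U6 in Ly6C high monocytes of mice 1, 2 and 3 and to 0.915, 1.76 and 0.508 in the Ly6C low samples. The most abundant was miR-150, except in the Ly6C high samples of mice 1 (miR-181a) and 3 (miR-342-3p), and miR-342-3p had no signal in the former. Of the 3 erythroid markers, miR-144 and miR-486 had no signal in any sample, and miR-451 summed to at most 0.00314. The endothelial and platelet pair, led by miR-126-3p, reached at most 0.0133, and both it and the erythroid list were without signal in the mouse 1 Ly6C high sample. The part of any of these in the differences below was not tested.

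miR-221 was detected in only 3 of the 6 samples. Its Ct was 40, 40 and 26.97 in Ly6C high monocytes of mice 1, 2 and 3 and 27.99, 40 and 28.99 in the Ly6C low samples. Neither sample of mouse 2 had a signal, and a signal in both subsets was seen only in mouse 3, so the subsets overlapped. Of 99 card A assays with a Ct under 35 in the 3 samples that showed miR-221, only 3 had no signal in both samples of mouse 2, namely miR-221, miR-199a-3p and let-7a. In these 3 samples miR-221 was of middling abundance, at place 60 to 67 by Ct among the 115 to 129 assays of the card with a Ct under 35.

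Expression was taken as −ΔCt, the U6 Ct of the same card minus the Ct of the miRNA, a log2 measure that rises with the amount of miRNA. In mouse 3, −ΔCt of miR-221 was −6.20 in the Ly6C high and −7.07 in the Ly6C low sample, higher in Ly6C high by 0.87. In mouse 1 it was −8.19 in the Ly6C low sample. The Ly6C high reaction without signal would place the difference at −9.15 or lower. This bound, like those below, holds only if the reaction worked, which was not tested. In mouse 2 the listed values differ by 3.89, but as both reactions were at 40 this is the U6 difference and no measurement of miR-221. With the listed values, the mean was −12.96 ± 5.94 in Ly6C high monocytes against −11.50 ± 6.73 in Ly6C low monocytes (SD, n = 3 mice each). The difference of −1.46 (95% interval −12.38 to 9.46) was far smaller than the spread among samples, and it turned to 0.73 without the mouse 1 Ly6C high sample.

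miR-222, its neighbour on the chromosome, was detected in 5 of the 6 samples. Its Ct was 40, 26.97 and 23.95 in Ly6C high monocytes of mice 1, 2 and 3 and 23.95, 23.95 and 26.95 in the Ly6C low samples. Only the mouse 1 Ly6C high sample, the one that stood apart, had no signal. Where detected, miR-222 was among the more abundant miRNAs of the card, at place 19 to 28 by Ct.

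Relative to U6, miR-222 was higher in Ly6C high monocytes in the 2 mice that showed it in both subsets. Its −ΔCt in mouse 2 was −2.32 in the Ly6C high and −3.19 in the Ly6C low sample, a difference of 0.87, and in mouse 3 it was −3.17 and −5.03, a difference of 1.86. The mouse 2 difference was about the median of the card A assays in that mouse (0.88), so it does not set miR-222 apart. In mouse 1 the difference was −13.19 or lower if the Ly6C high reaction worked, against a Ly6C low value of −4.15. The means were −7.61 ± 8.43 in Ly6C high monocytes against −4.12 ± 0.92 in Ly6C low monocytes (SD, n = 3 mice each), which left a difference of −3.49 (95% interval −13.86 to 6.89). Without the mouse 1 Ly6C high sample the difference turned to 1.38 (95% interval −1.27 to 4.03), so a single reaction without signal decided its direction.

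miR-26a had a signal in all 6 samples. Its Ct was 27.97, 26.98 and 24.97 in Ly6C high monocytes of mice 1, 2 and 3 and 23.99, 22.98 and 25.97 in the Ly6C low samples. The −ΔCt values were −5.30, −2.32 and −4.20 in Ly6C high and −4.18, −2.22 and −4.05 in Ly6C low monocytes. The subsets overlapped, and both samples of mouse 2 were the highest of their subset. The mean was −3.94 ± 1.51 in Ly6C high monocytes against −3.48 ± 1.10 in Ly6C low monocytes (SD, n = 3 mice each), which left a difference of −0.46 (95% interval −4.37 to 3.46). Within mice 1, 2 and 3 the differences were −1.12, −0.10 and −0.15, the last 2 a small part of a cycle. The sign of the mean difference was not stable when single samples were dropped, which breaks a pair. It was 0.22 without the mouse 1 Ly6C high sample and 0.18 without the mouse 2 Ly6C low sample. With mouse 1, 2 or 3 left out whole it was −0.13, −0.63 and −0.61.

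miR-26b also had a signal in all 6 samples, and in mice 2 and 3 its values were almost those of miR-26a. Its Ct was 29.98, 26.97 and 24.96 in Ly6C high monocytes of mice 1, 2 and 3 and 22.98, 22.98 and 25.96 in the Ly6C low samples. The −ΔCt values were −7.31, −2.32 and −4.18 in Ly6C high and −3.17, −2.22 and −4.04 in Ly6C low monocytes. The lowest value was again that of the mouse 1 Ly6C high sample, and the subsets overlapped. The mean was −4.61 ± 2.52 in Ly6C high monocytes against −3.14 ± 0.91 in Ly6C low monocytes (SD, n = 3 mice each), which left a difference of −1.46 (95% interval −5.97 to 3.05). The within-mouse differences were −4.14, −0.10 and −0.14, and without the mouse 1 Ly6C high sample the difference of the means was −0.11 (95% interval −3.10 to 2.88).

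**Figure D1:**
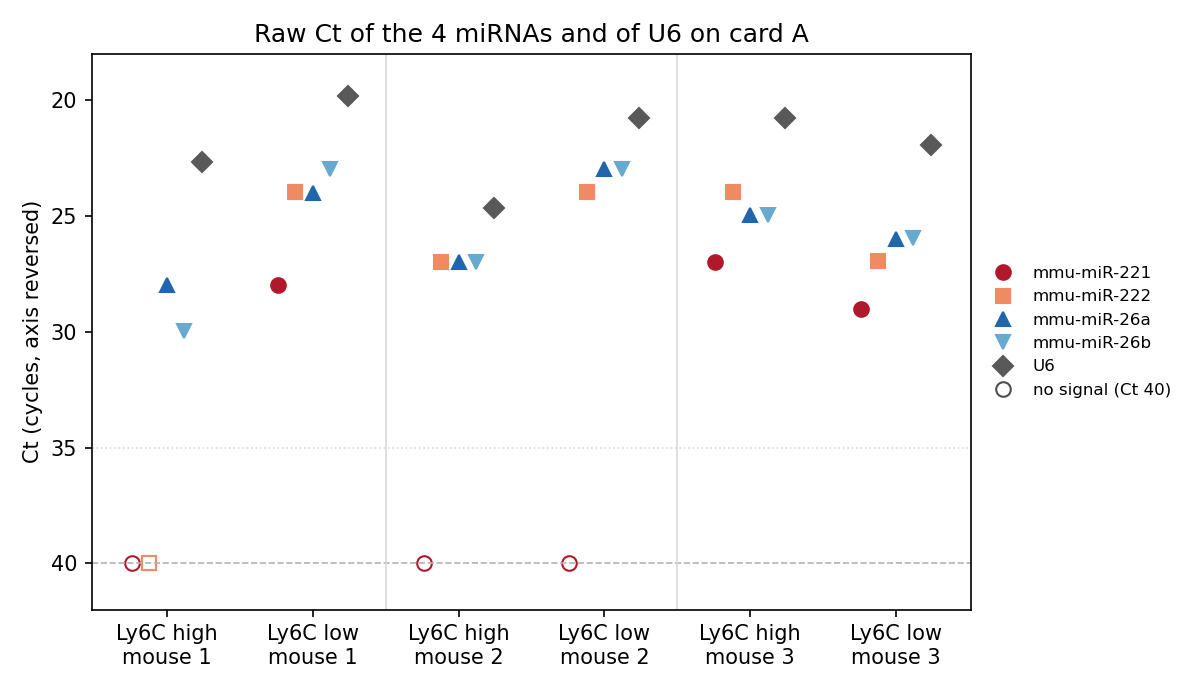
Raw Ct in cycles (reversed vertical axis, so that more template is higher) of the 4 miRNAs and of U6 on card A, for each of the 6 samples ordered by mouse. Each point is 1 reaction, open symbols on the dashed line at 40 had no signal, and the dotted line marks a Ct of 35. miR-26a and miR-26b fall on the same whole cycle in mice 2 and 3 and part in mouse 1, and miR-221 has no signal in either sample of mouse 2.

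None of these differences passed a test. limma called 0 of the 201 tested assays (0%) at an adjusted p of 0.05 or less, and 0 of the 4 members. At an unadjusted p under 0.05 it gave 2 of 201 assays (0.995%) and 0 of the 4 members, whose lowest unadjusted p was 0.442. For all 4 members the adjusted p was 0.985. The 2-sided exact permutation test gave p = 1 for miR-221 and miR-222, p = 0.5 for miR-26a and p = 0.4 for miR-26b, where 3 samples against 3 cannot go below 0.1. The 3 values of each subset did not overlap for 11 of 201 assays (5.47%) and for 0 of the 4 members. Among the 142 assays with a signal in each mouse, 21 (14.8%) were lower in Ly6C high monocytes in all 3 mice, and 15 were higher in all 3. miR-26a and miR-26b were among the 21, although in mice 2 and 3 their sign rests on −0.10 to −0.15, which the cycle steps do not resolve. A p that misses the threshold does not show equal levels, and the intervals above leave room for differences of several cycles. Neither the fit nor the permutation test paired the subsets by mouse. With a block for the mouse the intervals were −3.74 to 2.82 for miR-26a and −5.65 to 2.73 for miR-26b. With mouse 1 also dropped they were −1.27 to 1.02 and −1.27 to 1.03, which rest on mice 2 and 3 and on Ct values near whole cycles. Fewer cells of a type and less RNA per cell cannot be told apart in these bulk samples.

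Raw Ct and U6 moved in the same direction within mice 2 and 3, for each member with a signal in both samples. In mouse 2 the Ct of U6 was later in the Ly6C high sample by 3.89 cycles, and that of miR-222, miR-26a and miR-26b by 3.02, 4.00 and 3.99. In mouse 3 the difference of U6 was −1.15 cycles, beside −2.02 for miR-221, −3.002 for miR-222, −1.001 for miR-26a and −1.005 for miR-26b. For the miR-26 pair in both mice, and for miR-222 in mouse 2, the difference relative to U6 was thus smaller than the shift of U6 itself, whereas for miR-222 in mouse 3 it was larger (1.86). In mouse 1, U6 was later by 2.86 cycles, miR-26a by 3.98 and miR-26b by a further 3.02.

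Set against the other card A assays of the same mouse, which does not depend on U6, the miR-26 pair lay below the middle and miR-222 at or above it in mice 2 and 3. Of the tested card A assays, 103 had a signal in both samples of mouse 2 and 112 in mouse 3, and their median differences were 0.88 and 0.83. miR-26a lay at −0.99 and −0.98 from these medians and miR-26b at −0.98 and −0.98. miR-222 lay at −0.01 from the median in mouse 2 and at 1.02 in mouse 3, where only 14 of the 112 assays were above it. miR-221 lay at 0.04 in mouse 3. In mouse 1, with 50 such assays and a median of 0.83, miR-26a lay at −1.95 and miR-26b at −4.97.

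These places are shared by many assays, because Ct values came close to whole cycles. In each sample, 89.6% to 96.4% of the card A assays with a signal had a Ct within 0.05 of a whole number, and the 20 reactions of the 4 members with a signal lay at most 0.0518 from one. Within 0.05 of the difference of miR-26a there were 28 other assays in mouse 2 and 31 in mouse 3, and within 0.05 of that of miR-222 there were 28 and 15. A difference under about 1 cycle between 2 assays was therefore not resolved.

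**Figure D2:**
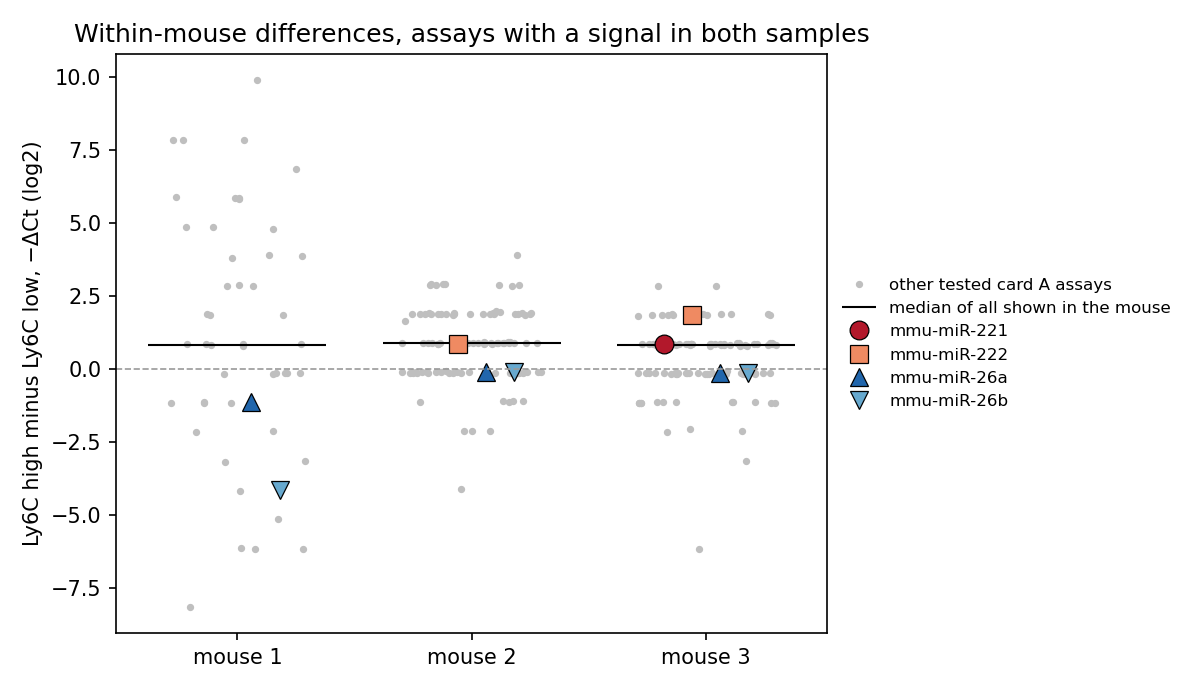
Differences in −ΔCt (log2, Ly6C high minus Ly6C low) within each mouse for the tested card A assays with a signal in both samples, 50, 103 and 112 in mice 1, 2 and 3. Grey points are other assays, spread sideways at random for display, large symbols are the 4 miRNAs and black lines are the medians of all assays shown (0.83, 0.88 and 0.83). The miR-26 pair lies below the median in each mouse, miR-222 near or above it, and values bunch in steps of about 1 cycle.

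Ratios between assays of 1 card within a sample depend on neither U6 nor the amount of RNA, although they carry each assay's own efficiency, which is not given in the sources used here. The log2 ratio of miR-26a over miR-26b was 2.01, −0.0062 and −0.014 in Ly6C high monocytes of mice 1, 2 and 3. The Ly6C low samples gave −1.01, −0.0011 and −0.0097. Both assays thus fell on the same whole cycle in each sample of mice 2 and 3, which does not resolve a difference under about 1 cycle, and in mouse 1 they lay apart in both subsets, in opposite directions. The subset means were 0.66 ± 1.17 (SD, n = 3) and −0.34 ± 0.58 (SD, n = 3), and the difference of 1.00 came from mouse 1 alone, as it was −0.0046 without that mouse.

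The log2 ratio of miR-221 over miR-222 could be measured in 3 samples. It was −3.02 in the mouse 3 Ly6C high sample and −4.04 and −2.04 in the Ly6C low samples of mice 1 and 3, so that miR-222 had the earlier Ct of the pair in each. In mouse 2 miR-221 had no signal. If its reactions worked, the ratio was −13.03 or lower in the Ly6C high and −16.05 or lower in the Ly6C low sample, which was not tested. Both were without signal in the mouse 1 Ly6C high sample, where the listed ratio of 0 has no meaning. The difference of the subset means over the listed values, 2.03, rests on these floors. Without them 1 Ly6C high sample is left, and within mouse 3, the only mouse with the ratio in both subsets, the difference was −0.98.

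The balance of both proliferation-linked miRNAs over both miR-26 paralogs, the mean of the former minus the mean of the latter, was −0.50 in the Ly6C high and −2.004 in the mouse 3 Ly6C low sample. This was the only mouse with a signal for all 4 miRNAs in both subsets, and there the balance was higher in Ly6C high monocytes by 1.51. In mouse 1 it was −2.49 in the Ly6C low sample. If the reactions without signal worked, the other 3 samples give upper bounds of −11.03 and −6.51 (Ly6C high, mice 1 and 2) and −8.99 (Ly6C low, mouse 2). Over the listed values the difference of the subset means was −1.51, beside SDs of 5.28 and 3.90 (n = 3 each), and its sign turned without the mouse 1 Ly6C high sample, to 0.99.

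miR-222 alone allows the same comparison in 5 samples, a ratio chosen after the values were seen. The log2 ratio of miR-222 over miR-26b was −0.98, −0.97 and −0.99 in the Ly6C low samples of mice 1, 2 and 3 and 0.0016 and 1.01 in Ly6C high monocytes of mice 2 and 3. In the mouse 1 Ly6C high sample it was −10.02 or lower if the miR-222 reaction worked. The ratio of miR-222 over miR-26a was 0.031, −0.97 and −0.98 in the Ly6C low samples and 0.0077 and 1.02 in Ly6C high monocytes of mice 2 and 3. Within mice 2 and 3, the listed values put miR-222 1 or 2 cycle steps higher relative to the miR-26 pair in Ly6C high monocytes. Each such difference takes a Ct near a whole cycle from both assays in both samples. A single step is therefore not resolved, and 2 steps are barely so. With the mouse 1 Ly6C high sample the direction of the subset means was the opposite, at −2.03 against miR-26b and −3.03 against miR-26a.

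By mean −ΔCt, the order in Ly6C low monocytes was miR-26b, miR-26a, miR-222 and miR-221, and in Ly6C high monocytes miR-26a, miR-26b, miR-222 and miR-221. The place of miR-222 in Ly6C high monocytes rests on the mouse 1 reaction without signal, since in mouse 2 it was level with the miR-26 pair and in mouse 3 it was above both. miR-221 came after miR-222 in each of the 5 samples in which miR-222 had a signal, in mouse 2 only through its reactions without signal. The ratio of miR-26a over miR-26b had a mean smaller than its SD in both subsets, and that of miR-222 over miR-26a was −0.64 ± 0.58 (SD, n = 3) in Ly6C low monocytes. The ratio of miR-222 over miR-26b, which are not neighbours there, was −0.98 ± 0.0087 (SD, n = 3) in that subset, 1 cycle step in each mouse. With Ct values near whole cycles, this SD does not resolve a spread among mice of under about 1 cycle. Such an order across assays also carries their efficiencies.

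Likeness of pattern was measured for each member as the root mean square difference in −ΔCt from each of the other 200 tested assays over the 6 samples, after centring each assay on its own mean. The nearest to miR-221 were let-7a (1.49) and miR-199a-3p (1.88), which share its missing signals, and then miR-761 (4.16). For miR-222 they were miR-328 (0.48), miR-146b (0.49) and miR-20a (0.57), each with a signal in 5 samples. miR-26a was closest to miR-30b (0.47), miR-19a (0.47) and miR-19b (0.50), and miR-26b to miR-103 (0.68), miR-24 (0.68) and miR-125a-5p (0.70).

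Paralogs were not each other's nearest assay. In the order for miR-26a, miR-26b stood at place 12, and in that for miR-26b, miR-26a stood at place 6, with 0.90 between them. miR-222 stood at place 100 for miR-221, and miR-221 at place 127 for miR-222, with 5.97 between them. Without the mouse 1 Ly6C high sample, an alternative chosen after seeing the data, miR-26b rose to place 3 for miR-26a (0.40) and miR-26a remained at place 6 for miR-26b. In these 5 samples the nearest to miR-222 was miR-93 (0.0022) and the nearest to miR-26b was miR-195 (0.0075), followed by miR-140 (0.013), while the next in order stood at 0.38 for miR-222 and 0.39 for miR-26b. Distances this small are below the steps of about 1 cycle in which Ct was read.

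Other miRNAs linked to the cell cycle were counted in 2 lists. Of the 13 proliferation-promoting miRNAs, which hold the miR-17 cluster and its paralogs, miR-21 and miR-155, all 13 were tested and 0 passed the test, 3 were higher and 10 lower in Ly6C high monocytes, and the median difference was −2.81. Of the 22 restraining miRNAs, which hold let-7, miR-15, miR-16, miR-34 and others, 16 were tested and 0 passed, 10 were higher and 6 lower, and the median was 0.20. All 201 tested assays gave 80 higher and 121 lower with a median of −0.45, and the 127 on card A gave 46 and 81 with a median of −1.14. Without the mouse 1 Ly6C high sample, a count added after seeing the data, the promoting list gave 11 higher and 2 lower (median 1.05) and the restraining list 13 and 3 (median 0.56), beside 135 and 66 (median 0.63) of all tested assays and 100 and 27 (median 0.89) on card A.

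The 4 list members with the largest differences were all from the restraining list and all had reactions without signal. They were let-7f at −8.12 (standard error 3.40), miR-98 at 5.88 (4.31), miR-16 at −5.81 (5.37) and let-7i at 5.22 (6.33), each with a limma adjusted p of 0.985. Without the mouse 1 Ly6C high sample they were −5.76, 4.05, 0.38 and 3.06 in the same order. let-7f, a let-7 member known for lowering Ras and Myc, had no signal in Ly6C high monocytes of mice 1 and 2 and a Ct of 25.96 in that of mouse 3, against 24.94, 24.01 and 27.05 in the Ly6C low samples. miR-16, known for lowering cyclins and Bcl2, had no signal in the mouse 1 Ly6C high sample, without which its sign turned.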

How the data were processed

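Labels gave the subset and the mouse of each of the 6 samples. The authors' deposited values are raw Ct, a log2 scale with the sign turned, and ΔCt, from which the authors had subtracted U6 of the same sample and card. A further deposited table holds the authors' own Ly6C high/Ly6C low ratios within each mouse and was not used. The software and threshold behind Ct are not given in the sources used here.

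The 750 miRNA assays on 2 cards were read without the 18 control wells, and the 201 that reached a Ct under 35 in 3 or more samples, all 4 members among them, were tested. The cards are called A and B by their order in the deposited tables. The labels name only the Pool A primers, so how card B was primed is not given in the sources used here. Reactions without signal kept the listed 40. −ΔCt was fitted with limma 3.58.1 (lmFit and eBayes, R 4.3.3) on the subset alone, with Benjamini-Hochberg adjusted p-values over the 201 assays, and the threshold was 0.05. Intervals are at 95%. The fit was first tested on simulated data. Members were also compared by exact 2-sided permutation in Python 3.11.15 (scipy 1.17.1, numpy 2.4.6, pandas 2.3.3), and figures were drawn with matplotlib 3.10.9. Ratios were given as values without a test. Named besides the members are assays of the same hairpins or seed, the 3 nearest in pattern to each member, up to 4 cell cycle miRNAs with the largest differences, and marker lists. miR-181b, a lymphocyte marker, had no matching assay. The members and lists were chosen with earlier results of these data known. Precision is limited by the few arrays and by Ct values that lie near whole cycles.

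The labels number the mice, so equal numbers pair the subsets of 1 animal. Their deviations from the subset means correlated at 0.317, 0.615 and 0.722 in mice 1, 2 and 3 over the 201 assays, and at −0.0855, 0.409 and 0.41 over the 127 on card A. The alternatives were 5 normalizations, 3 filters, a floor at a Ct of 35, missing values in place of 40, a block for the mouse, ordinary least squares, a trended robust eBayes, and single samples or mice left out in turn.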

Additional observations from a re-analysis of the deposited data

Results flagged for a closer look

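Control wells other than U6, which enter no comparison, gave a signal with a Ct under 35 in some samples. On card A, the lowest Ct was 21.98 for snoRNA135, 18.99 for snoRNA202, 24.99 for U87 and 27.99 for Y1, each in the mouse 2 Ly6C low sample. The Ly6C high sample of the same mouse also showed all 4, at 25.96, 22.97, 28.97 and 29.95, whereas in mouse 1 only snoRNA202 was under 35 (31.92 and 30.96 in the Ly6C high and Ly6C low samples) and in mouse 3 none. On card B the lowest Ct was 20.0004 for snoRNA135, 33.98 for snoRNA202, 31.99 for U87 and 28.97 for Y1, again in the mouse 2 Ly6C low sample. The plant assay ath-miR159a, for which mouse RNA holds no template, was at 33.97 on card B of that sample and without signal elsewhere. Card B also showed snoRNA135 in the mouse 2 Ly6C high (23.96) and mouse 1 Ly6C low (32.36) samples. In mouse 1 it showed Y1 at 30.01 in the Ly6C high and 31.74 in the Ly6C low sample. Mouse 2 is also the mouse in which miR-221 had no signal in either sample. The part of these signals in the values of the 4 miRNAs was not tested.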

How the results depend on the processing

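Under all 23 alternatives, limma called 0 assays and 0 of the 4 members, and in the fits that gave a value for a member its adjusted p lay between 0.476 and 0.999. With the mouse as a block the differences were −1.46, −3.49, −0.46 and −1.46 for miR-221, miR-222, miR-26a and miR-26b, with adjusted p of 0.949 to 0.953, and the block changed no call. The filter for a Ct under 35 in all 6 samples left no value for miR-221 and miR-222. The count of assays at an unadjusted limma p under 0.05, 2 of 201 in the main fit, depended on the setting. It was 1 with the floor at 35 and 4 without the mouse 1 Ly6C high sample. With mouse 1 dropped and a block for the mouse it was 16.

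All 4 differences stayed negative under the 5 other normalizations, which moved the median of all tested assays from −0.45 to between −2.32 (none) and 0.34 (quantile). Their sizes moved too, and without normalization they were −3.33, −5.36, −2.33 and −3.33 for miR-221, miR-222, miR-26a and miR-26b. With the floor at 35 the difference of miR-221 turned to 0.21 and that of miR-222 was −1.82. With reactions without signal as missing, these differences turned to 1.43 and 1.38. For miR-221 the latter setting sets 1 Ly6C high sample, of mouse 3, against the Ly6C low samples of mice 1 and 3, and within mouse 3 the difference was 0.87. A block for the mouse after mouse 1 was dropped gave 2.38 and 1.36. The 2.38 of miR-221 averages 0.87 in mouse 3 with 3.89 in mouse 2, where both reactions were without signal. With samples or mice left out, the differences ranged from −5.33 to 2.38 for miR-221, from −6.16 to 1.38 for miR-222, from −1.27 to 0.22 for miR-26a and from −2.60 to −0.11 for miR-26b. miR-221 also turned positive when the mouse 1 Ly6C low sample (0.20) or the mouse 3 Ly6C low sample (0.75) was dropped. The ratio difference of miR-26a over miR-26b ranged from −0.0046 to 1.51, that of miR-221 over miR-222 from −2.31 to 5.86 and that of the balance from −4.27 to 2.00. The balance difference also turned positive with the floor at 35 (0.15) and with reactions without signal as missing (1.75). The latter again leaves 1 Ly6C high sample, of mouse 3. The cause of these turns was not tested. A Ct under 35 in each of the 6 samples was reached by 59 of 750 assays.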
